A study of Mus musculus with 27 samples.

Results

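Trp53inp2 and its paralogue Trp53inp1 are described here across the dorsal, ventral and axon pieces of the mouse optic stalk, 2 genes of the 55487 in the count table. Trp53inp2 was selected on its high count per library total in the axon pieces of control embryos, and Trp53inp1, the other gene of this small family, was added as a contrast. The axon control values of Trp53inp2 are therefore given as a description with no test. Tests of Trp53inp2 were made on contrasts that do not include the axon controls, and Trp53inp1 was tested in every contrast.

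The optic stalk joins the eye cup to the brain, and the axons of retinal ganglion cells run through it. From each of 4 control and 5 Smarcc1-DCT-cKO embryos at embryonic day 14, dorsal, ventral and axon pieces were cut from sections by laser capture, for 27 libraries in 6 groups. The mutants carried loxP-flanked alleles of Smarcc1 (also called Baf155), a core gene of the SWI/SNF chromatin remodeller, together with Dct-Cre and the Z/EG reporter. Control littermates did not carry Dct-Cre, and the background was C57Bl6/J. Dct-Cre acts in the pigmented lineage of the eye and in the optic stalk. Deletion in retinal ganglion cells, whose axons were captured, is not stated in the sources used here. Batch A held 1 control and 3 mutant embryos and batch B held 3 control and 2 mutant embryos.

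Both genes encode short acidic proteins that act in the nucleus and in autophagy, the breakdown of cell contents in lysosomes. Trp53inp2, also known as DOR, moves from the nucleus to forming autophagosomes, binds ATG8-family proteins such as LC3 and GABARAP, and can serve as a coactivator of the thyroid hormone receptor. In sympathetic neurons its mRNA is abundant in axons, where it has been linked to axon growth without being translated. Trp53inp1 is induced by p53 under stress and favours cell cycle arrest and cell death.

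Trp53inp2 (ENSMUSG00000038375.15) lies on the plus strand of mm10 chromosome 2 from position 155381059 to 155389850, a span of 8792 bases within 10 kb of Ncoa6. Its transcript Trp53inp2-201 has 4 exons and 3979 bases, made up of a 5′ UTR of 255 bases, a coding part of 663 bases for 221 codons, and 3061 bases from the stop codon onward. The stretch from the stop codon onward was thus 76.9% of the transcript. Trp53inp1 (ENSMUSG00000028211.11) lies on the plus strand of chromosome 4 from 11156431 to 11174379. Its transcript has 4 exons, 5404 bases and 239 codons, and 81.8% of it lies from the stop codon onward. Neither gene shares exonic bases with another gene in the annotation, so reads of a neighbour do not enter either count through annotated exons.

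The total count ranged from 10.9 to 33.98 M (M, 1e6) per library, and 9225 to 16810 genes had at least 1 count. Levels are counts per 1e6 counts of the library (CPM), for which 1 read was worth 0.0294 to 0.0917 CPM. A count of 0 allows up to 3 counts, or 0.0883 to 0.275 CPM, and this floor covers counting error only, since reads carry no molecular identifiers. Smarcc1, the targeted gene, had mean levels of 144, 130 and 124 CPM in the control dorsal, ventral and axon pieces and of 54.5, 33.5 and 18.3 CPM in those of mutants. The ventral and axon libraries of mutants lay below all controls of their piece, but the dorsal libraries labelled mutant 1 and 2, at 94.9 and 107 CPM, lay within the dorsal control range of 75.9 to 289 CPM. The summed level of 18 axonal cytoskeleton and transport genes was 5761 to 8797 CPM in control axons and 7203 to 10066 CPM in mutant axons, against 1557 to 6350 CPM in the dorsal and ventral pieces. The members did not share that order, since Tubb3, a neuronal tubulin gene, averaged 67.1 ± 49.9 CPM in mutant dorsal pieces (SD, n = 5) and had 0.133 CPM or less in each mutant axon library. Of 15 retinal ganglion cell genes, Pou4f2, Pou4f3 and Slc17a6 had no count in any axon library of either genotype. This was not particular to axons, since Pou4f2 and Pou4f3 had no count in any dorsal library and Slc17a6 in any ventral library. In all of these pieces of tissue, fewer cells of a type and less RNA per cell cannot be told apart.

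In control embryos Trp53inp2 stood at 1634, 1076, 1605 and 938 CPM in the axon pieces of embryos 1 to 4, a mean of 1313 ± 359 CPM (SD, n = 4). The same embryos gave 86.0, 6.45, 53.9 and 16.4 CPM in the dorsal piece and 78.5, 136, 93.4 and 116 CPM in the ventral piece. Every axon control lay above every dorsal and every ventral control, and the lowest axon control exceeded the highest ventral control by several fold. The mean in axons was 32.3 times the dorsal mean of 40.7 ± 36.5 CPM (SD, n = 4) and 12.4 times the ventral mean of 106 ± 25.2 CPM (SD, n = 4). On the scale of the fit, the log2 fold change was 5.47 against dorsal and 3.63 against ventral, given without a test because these libraries chose the gene. Among genes compared in this way, 1.5% lay entirely above dorsal and 1.11% entirely above ventral in the axon controls.

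Libraries of an embryo are those with the same replicate number in the labels, which do not state that the number marks the embryo. Mutant axons, which had no part in the choice, showed the same order as control axons. Trp53inp2 stood at 803, 1319, 1977, 726 and 592 CPM in mutant axons of embryos 1 to 5, a mean of 1083 ± 571 CPM (SD, n = 5). The dorsal pieces of these embryos had 34.5, 50.7, 18.7, 57.4 and 110 CPM. The ventral pieces had 81.4, 60.2, 66.1, 12.5 and 139 CPM. Mutant embryo 3 was the highest of all 9 embryos in axons and mutant embryo 5 the lowest, and embryo 5 was also the highest of the mutants in both other pieces. Even so, every mutant axon library lay above every mutant dorsal and ventral library, as was the case for 1.06% of genes against dorsal and 0.842% against ventral.

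**Figure D1:**
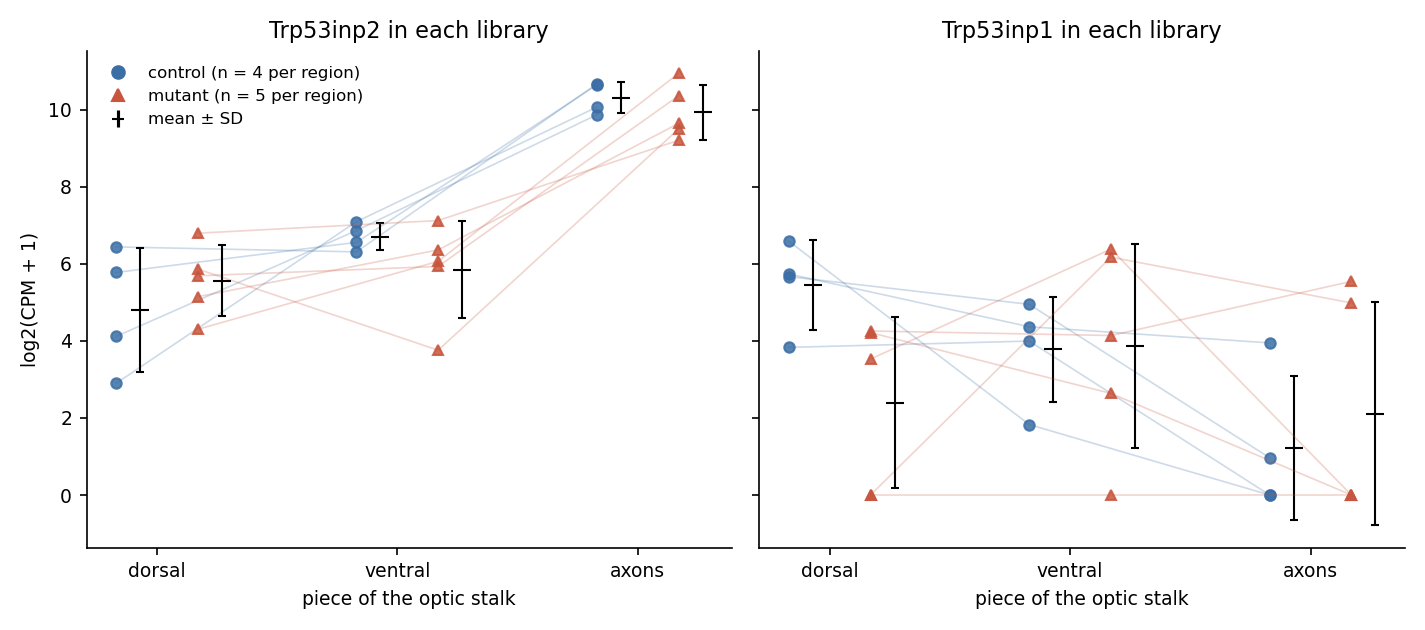
Level of Trp53inp2 (left) and Trp53inp1 (right) in each of the 27 libraries, as log2(CPM + 1), by piece of the optic stalk, with blue circles for controls and red triangles for mutants. Faint lines join the pieces of an embryo and black marks give the mean ± SD. All 9 axon libraries of Trp53inp2, at 592 to 1977 CPM, sit above all 18 dorsal and ventral libraries, at 6.45 to 139 CPM, whereas the groups of Trp53inp1 overlap in every pair compared.

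In mutants, Trp53inp2 was 19.9 times higher in axons than in the dorsal piece and 15.1 times higher than in the ventral piece, as ratios of mean CPM. The log2 fold change was 4.54 ± 0.62 (SE) against dorsal, with an adjusted p of 0.00296 by edgeR's quasi-likelihood test with the embryo as a block. Against ventral it was 4.27 ± 0.61 (SE), with an adjusted p of 0.00511 by the same test. Of the 2 genes only Trp53inp2 was called in these comparisons, in which 0.634% of 16235 genes tested were called against dorsal and 0.517% against ventral. The share called higher in axons by edgeR was 0.456% and 0.443%, a majority of its calls, whereas most calls of DESeq2 and limma voom were lower in axons, and over all genes tested the median log2 fold change was −0.96 and −0.99. Both calls came with 5 of 5 embryos higher in axons. An exact sign-flip permutation test (two-sided) over the 5 embryos gave p = 0.0625 for each, the smallest p that 5 pairs allow, and 0.125 adjusted over the 4 tests of this kind.

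The size of the difference varied widely among embryos, as far as the replicate numbers identify them. Between same-numbered libraries of both genotypes, axons exceeded the dorsal piece by 5.37 to 167 times and the ventral piece by 4.27 to 57.8 times. The widest dorsal ratio belonged to control embryo 2, whose dorsal piece had the lowest level of all libraries, 6.45 CPM. The narrowest ratios on both sides belonged to mutant embryo 5. Of the summed level of an embryo's 3 pieces, 70.4% to 95.9% came from the axon piece, with all embryos other than mutant embryo 5 at 87.4% or more.

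Within batch A alone (3 mutant embryos), the mutant log2 fold change was 5.48 against dorsal (adjusted p = 0.0316 by edgeR) and 4.44 against ventral (adjusted p = 0.0990 by edgeR). Within batch B alone (2 mutant embryos) it was 3.38 (adjusted p = 0.757 by edgeR) and 4.00 (adjusted p = 0.767 by edgeR), in fits that called no gene. Leaving out mutant embryo 2 took the ventral comparison just past the threshold, at 4.16 with an adjusted p of 0.0586 by edgeR. The direction was the same under each of the 14 alternatives tried for each comparison.

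**Figure D2:**
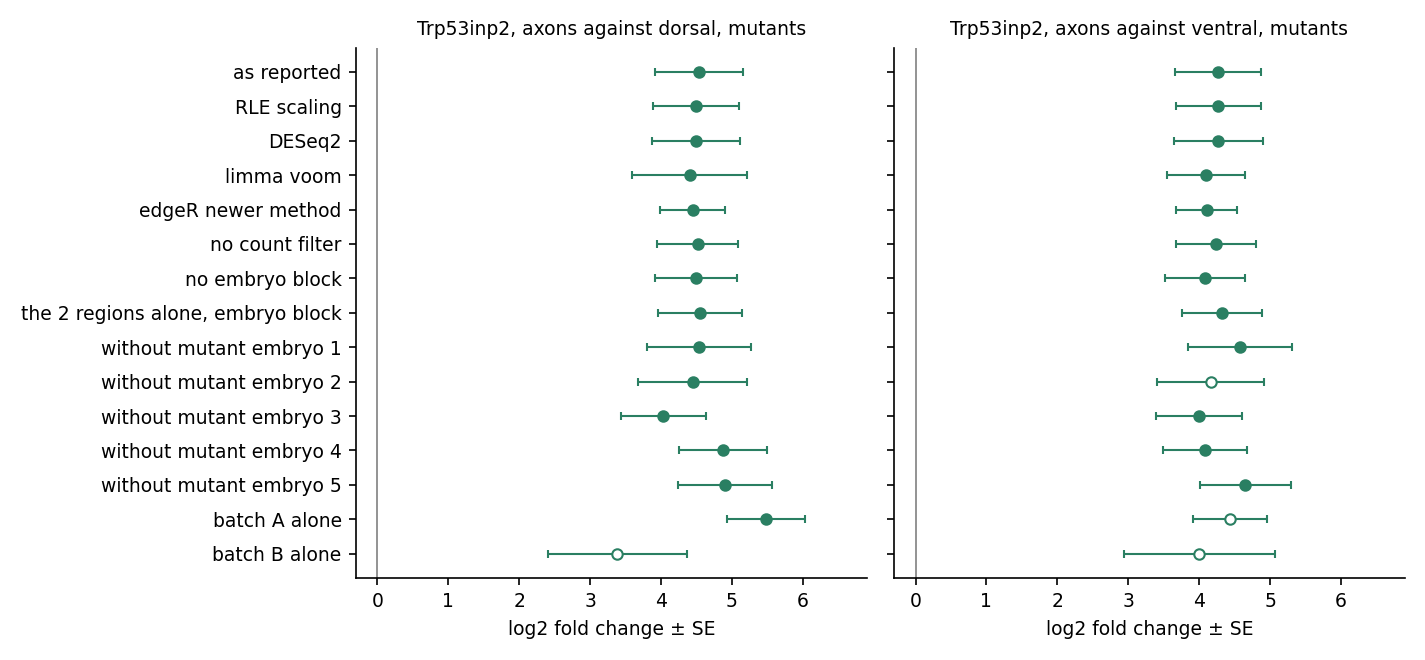
Log2 fold change (± SE) of Trp53inp2 in mutant axons against the dorsal (left) and ventral (right) pieces, as reported and under each of 14 alternatives named on the left. Filled points were called and hollow points were not. All estimates lie between 3.38 and 5.48 against dorsal and between 4.00 and 4.65 against ventral, and 13 and 11 of the 14 alternatives kept the call.

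Ordered by mean CPM, Trp53inp2 ran from control axons (1313) through mutant axons (1083), control ventral (106), mutant ventral (71.8 ± 45.5 SD, n = 5) and mutant dorsal (54.3 ± 34.7 SD, n = 5) to control dorsal (40.7). Only the step from mutant axons to control ventral was free of overlap, and the lowest axon library was 4.27 times the highest dorsal or ventral library. Every other pair of neighbours in this order overlapped. Trp53inp2 had at least 104 counts in each of the 27 libraries, so none of these levels lies near the floor.

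The transcript was therefore also counted, at a lower level, in the dorsal and ventral pieces. Whether axons within those pieces carried it was not tested. In controls the ventral piece exceeded the dorsal piece in 3 of 4 embryos, and the log2 fold change of dorsal over ventral was −1.84 ± 0.63 (SE), with an adjusted p of 1 by edgeR. That fit shares its block and its spread with the axon controls, and with the dorsal and ventral libraries alone the value was −1.95 ± 1.02 (SE; adjusted p = 1 by edgeR). It ran from −2.56 to −1.14 with a control embryo left out. No gene (0% of 16231) was called in that comparison by edgeR, where 456 had an unadjusted p under 0.05, DESeq2 called 1134 and limma voom 20. In mutants ventral exceeded dorsal in 4 of 5 embryos, the log2 fold change of dorsal over ventral was −0.27 ± 0.55 (SE; adjusted p = 1 by edgeR), and 0.0246% of genes were called. The difference of the genotype effect between dorsal and ventral was 1.58 ± 0.89 on the log2 scale (adjusted p = 1 by edgeR, where 0.00612% of 16330 genes were called), in a fit of all libraries, and ran from 0.88 to 2.32 with an embryo left out.

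Between genotypes, no difference of Trp53inp2 was detected in the dorsal or the ventral piece. The mutant over control log2 fold change was 0.42 ± 0.96 (SE) in the dorsal piece, with an adjusted p of 1 by edgeR, and 0.0124% of 16145 genes were called. Without mutant 1 or mutant 2, whose dorsal Smarcc1 lay in the control range, it was 0.61 and 0.46. It was −0.45 ± 0.64 (SE) in the ventral piece, with an adjusted p of 0.999 by edgeR. No gene (0% of 16139) was called there by edgeR, where 515 had an unadjusted p under 0.05, DESeq2 called 342 and limma voom 6. The exact permutation test (two-sided) of log2(CPM + 1) gave p = 0.373 in dorsal and 0.230 in ventral, and 0.4 and 0.275 over splits that keep the batch composition. In the dorsal piece a standard error of this size leaves room for a difference of several fold in either direction. In the ventral piece it leaves room for a fall of several fold and for a smaller rise. In axons the mutant mean was 0.825 times the control mean with overlapping ranges. The fitted log2 fold change there was −0.65 with batch as a term and −0.28 without it, both described without a test.

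Trp53inp1 had another pattern, with its highest control mean in the dorsal piece and its lowest in axons. In control embryos 1 to 4 it stood at 95.5, 52.4, 50.0 and 13.3 CPM in the dorsal piece, a mean of 52.8 ± 33.6 CPM (SD, n = 4). The ventral piece gave 2.56, 19.7, 29.9 and 14.97 CPM and the axon piece 0, 14.5, 0.954 and 0 CPM. Axons were thus lowest in each of the 4 control embryos, although axon embryo 2 lay above dorsal embryo 4. The log2 fold change of axons over dorsal was −6.34 ± 3.003 (SE; adjusted p = 0.846 by edgeR), with 0.222% of 16231 genes called. Over ventral it was −4.52 ± 2.85 (SE; adjusted p = 0.953 by edgeR), with 0.0801% called. DESeq2 called both, with −6.50 (adjusted p = 0.000548) and −4.62 (adjusted p = 0.0317), among 2157 and 1960 genes. With a control embryo left out, the edgeR values ran from −9.26 to −4.26 over dorsal and from −7.05 to −2.79 over ventral, and the newer edgeR method gave −3.61 and −1.93. Fitted folds of a gene with libraries at 0 depend on the prior count and are no bound. Dorsal over ventral was 1.81 ± 2.41 (SE; adjusted p = 1 by edgeR).

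Mutant embryos did not show that order for Trp53inp1. In embryos 1 to 5 the dorsal piece had 0, 17.6, 0, 10.6 and 18.1 CPM, the ventral piece 71.3, 5.22, 0, 82.6 and 16.7 CPM, and the axon piece 30.7, 0, 0, 0 and 45.8 CPM. Axons were lower than dorsal in 2 of 5 mutant embryos and lower than ventral in 3 of 5. Mutant embryo 3 had no count in any of its pieces. Over all libraries 8 of 27 were at 0, of which 5 were axon libraries. The log2 fold changes in mutants were −0.36 ± 3.36 for axons over dorsal, −1.50 ± 2.80 for axons over ventral and −1.14 ± 2.91 for dorsal over ventral (SE), with adjusted p values of 1, 0.890 and 1 by edgeR. For axons over dorsal the means had the opposite order, with 15.3 CPM in axons and 9.26 CPM in dorsal.

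In the dorsal piece Trp53inp1 averaged 9.26 ± 8.96 CPM (SD, n = 5) in mutants against 52.8 CPM in controls. The log2 fold change was −2.49 ± 1.79 (SE; adjusted p = 0.993 by edgeR), and the groups overlapped through control embryo 4 alone. Without mutant 1 or mutant 2 it was −2.14 and −3.90. The exact permutation test (two-sided) gave p = 0.0635 over all splits and 0.05 within batches, and 0.317 adjusted over the 5 tests of genotype. In the ventral piece the mutant mean was 35.2 ± 38.8 CPM (SD, n = 5) against 16.8 ± 11.4 CPM (SD, n = 4), with an adjusted p of 0.999 by edgeR and an exact permutation p of 0.944. In axons it was 15.3 ± 21.6 CPM (SD, n = 5) against 3.85 ± 7.08 CPM (SD, n = 4), with an adjusted p of 0.936 by edgeR and an exact permutation p of 0.683. No gene (0% of 14977) was called in axons by edgeR, where 531 had an unadjusted p under 0.05, DESeq2 called 1233 and limma voom 45. Between regions the genotype effect on Trp53inp1 differed by 6.0 ± 5.29 (axons over dorsal), 3.06 ± 4.78 (axons over ventral) and −2.94 ± 3.97 (dorsal over ventral) on the log2 scale (SE), each with an adjusted p of 1 by edgeR. The shares of genes called in the first 2 of these were 0.0122% and 0%, with 636 genes at an unadjusted p under 0.05 in the latter and 1929 and 24 called there by DESeq2 and limma voom.

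**Figure D3:**
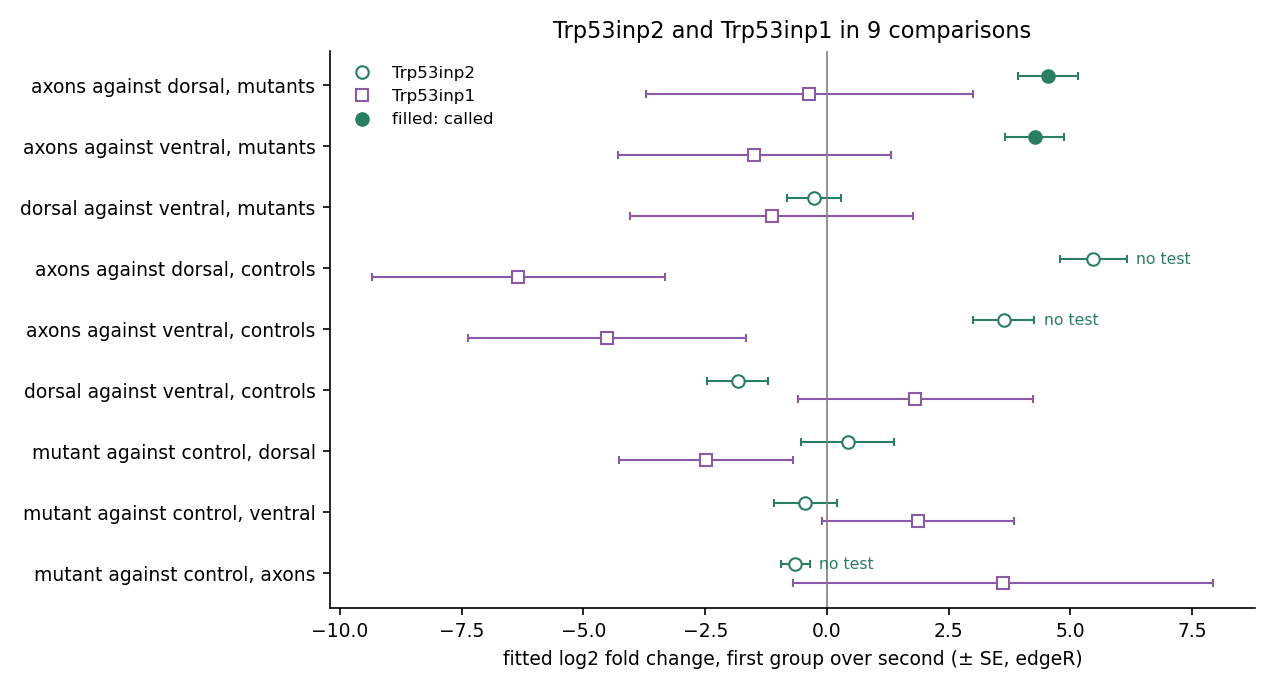
Fitted log2 fold change (± SE) of Trp53inp2 (green circles) and Trp53inp1 (purple squares) in 9 comparisons, the first group over the second. Filled points were called, hollow points were not, and values marked "no test" involve the axon controls that chose Trp53inp2. Only the 2 mutant comparisons of axons, at 4.54 and 4.27 for Trp53inp2, are filled, and the bars of Trp53inp1 span several log2 units.

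Set side by side per kilobase of exon, where levels of different genes can be compared, Trp53inp2 averaged 250 ± 68.2 CPM per kilobase in control axons (SD, n = 4) and 206 ± 109 in mutant axons (SD, n = 5). Trp53inp1 averaged 0.595 ± 1.09 and 2.36 ± 3.34 in the same groups. The ratio of these means was 420 in control axons and 87.2 in mutant axons. It is imprecise, since the Trp53inp1 mean of control axons rests almost wholly on embryo 2, without which the ratio was 5392, and 3 of 5 mutant axon libraries were at 0. It was 7.77 in control ventral, 2.52 in mutant ventral, 7.23 in mutant dorsal and 0.949 in control dorsal, the only group in which the paralogues had near equal means. Trp53inp2 was above Trp53inp1 per kilobase in 9 of 9 axon, 8 of 9 ventral and 8 of 9 dorsal libraries. By CPM per kilobase it ranked between position 168 and 612 among all genes of an axon library. Over the 27 libraries, log2(CPM + 1) of the paralogues correlated with r = −0.41 (Spearman's rho −0.33), which is a description, since regions separate the libraries. Within the 18 dorsal and ventral libraries r was 0.02.

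The partners of Trp53inp2 were read in the same mutant comparisons of axons. Of 15 genes of the ATG8 family and its conjugation machinery, all tested, edgeR called none against either piece, with 0 at an unadjusted p under 0.05. Their median log2 fold change was −0.07 against dorsal and −0.08 against ventral, next to −0.96 and −0.99 over all genes. Map1lc3a, which encodes the LC3 protein that Trp53inp2 binds, averaged 67.4 ± 29.8 CPM in mutant axons, 32.7 ± 9.33 in dorsal and 25.8 ± 10.9 in ventral (SD, n = 5), and was not called. None of the 20 genes of autophagy initiation and cargo receptors was called (median −2.57 and −1.06, with 2 at an unadjusted p under 0.05 in each).

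Of 10 neurotrophin receptor and ligand genes 7 were tested and none was called, with 2 and 0 at an unadjusted p under 0.05. Their median log2 fold change was −5.49 against dorsal and −1.57 against ventral, next to −0.96 and −0.99 over all genes. Ntrk2, which encodes the receptor of brain-derived neurotrophic factor, averaged 2.71 ± 3.81 CPM in mutant axons, 56.3 ± 38.7 in mutant dorsal and 24.7 ± 20.8 in mutant ventral (SD, n = 5), and was not called (adjusted p = 0.310 and 0.526 by edgeR). Among the nuclear receptors that Trp53inp2 can coactivate and their partners, 9 of 12 genes were tested and none was called. Their median was −2.20 against dorsal and −0.78 against ventral, with 2 and 0 at an unadjusted p under 0.05. Thra, the thyroid hormone receptor alpha gene, averaged 33.3 ± 26.1 CPM in control axons (SD, n = 4) and 46.0 ± 50.5 in mutant axons (SD, n = 5).

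The p53 pathway, which induces Trp53inp1, was represented by 17 tested genes of 22, none of them called in mutant axons (1 and 2 at an unadjusted p under 0.05, median −0.04 against dorsal and 0.04 against ventral). Trp53 itself averaged 212 ± 136 CPM in mutant axons, 160 ± 63.9 in mutant dorsal and 232 ± 102 in mutant ventral (SD, n = 5). Cdkn1a, the p53 target that halts the cell cycle, averaged 25.03 ± 38.6, 28.3 ± 26.3 and 21.6 ± 39.3 CPM in these groups.

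Some other transcripts known from axons were higher together with Trp53inp2. Of 19 tested, 2 were called against dorsal and 3 against ventral, all higher in mutant axons, with a list median of 0.57 and 0.42. Over all genes tested, 0.456% and 0.443% were called higher, with medians of −0.96 and −0.99. Map1b, which encodes a microtubule-associated protein of growing axons, averaged 2635 ± 645 CPM in mutant axons, 475 ± 201 in dorsal and 392 ± 154 in ventral (SD, n = 5). Its log2 fold change was 2.72 ± 0.28 and 3.01 ± 0.29 (SE; adjusted p = 0.000444 and 0.000529 by edgeR). Tmsb10, an actin-monomer binding protein gene, had 1.43 ± 0.15 and 1.40 ± 0.14 (adjusted p = 0.000326 and 0.000582 by edgeR). Cox4i1, of the respiratory chain, was called against ventral at 1.01 ± 0.16 (adjusted p = 0.00901 by edgeR). Of the 17 tested axonal cytoskeleton and transport genes, Map1b and Kif1a, an axonal kinesin gene, were called higher against both pieces, Kif1a at 4.52 ± 0.60 and 3.01 ± 0.54 (adjusted p = 0.00225 and 0.0234 by edgeR). The fitted values of this list pointed both ways, with 10 of 17 above 0 against dorsal and 11 against ventral. The Trp53inp2 estimate against ventral, 4.27, was above each of these, and against dorsal Kif1a was close to it at 4.52 against 4.54. None of these differences between genes was tested.

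Some genes of other cell types were also called in mutant axons against the other pieces. Of 14 astrocyte progenitor genes 4 were called higher against dorsal (Vim, Fabp7, Nes and Slc1a3; 0.456% of all genes) and Nes also against ventral (0.443%). The list as a whole was split, with 7 of 14 fitted above 0 against dorsal (median 0.60) and 4 against ventral (median −0.41). Over all genes tested the medians were −0.96 and −0.99. The summed level of the 14 genes was 3525 to 5263 CPM in mutant axons, 1386 to 2438 in mutant dorsal and 2929 to 4874 in mutant ventral. Of 13 tested pigment epithelium and melanin genes 4 were called lower against dorsal (Dct, Tyr, Otx2 and Ttr; 0.179% of all genes) and Dct against ventral (0.0739%). The pigment sums were 394 to 1703, 5008 to 16605 and 929 to 5143 CPM in mutant axons, dorsal and ventral. Mlana, Rpe65, Ttr, Tyr and Gpnmb were at 0 in all mutant axon libraries. Rpe65 was also at 0 in all mutant dorsal and ventral libraries, and Mlana in all mutant ventral libraries. The erythroid sum was 609 to 33050 CPM in mutant axons against 2.27 to 1227 CPM in mutant ventral. Of its 9 genes 3 were called higher against ventral (Hba-a1, Hbb-bs and Hba-a2; 0.443% of all genes). The erythroid sum in mutant dorsal was 176 to 7270 CPM, with 0 genes called against it. Of 12 mesenchyme genes Dcn was called higher against ventral (0.443% of all genes). The mesenchyme sums were 629 to 2327, 56.5 to 376 and 53.9 to 201 CPM in mutant axons, dorsal and ventral. No endothelial, proliferation or retinal ganglion cell gene was called in either comparison by edgeR (0 and 4, 4 and 2, and 5 and 3 at an unadjusted p under 0.05). Mutant axon libraries had fewer genes with a count, 9225 to 11358 against 12396 to 15177 in the mutant dorsal and ventral pieces. Mitochondrial genes took 7.49% to 12.2% of counts in mutant axons against 4.19% to 7.63% in the mutant dorsal and ventral pieces. The part of these cell types, and of RNA content, in the Trp53inp2 difference was not tested.

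The genes whose pattern over the 27 libraries was most like that of Trp53inp2, among 9028 genes with a mean of at least 10 CPM, were Rps4x (Pearson's r = 0.88), Nes (0.87), Sncg (0.86), Rps29 (0.86), Rpl41 (0.85), Rpl32 (0.85), mt-Rnr1 (0.84) and Rpl21 (0.84). Sncg encodes gamma-synuclein, a marker of retinal ganglion cells, and Nes encodes the intermediate filament protein nestin of progenitors. Most genes of the retinal ganglion cell list did not go with Sncg. Of 13 tested, 5 were fitted higher in mutant axons against dorsal (median −2.88) and 4 against ventral (median −0.50). Over all genes tested, 32.5% and 29.0% were fitted higher, with medians of −0.96 and −0.99. Sncg averaged 451 ± 221 CPM in control axons (SD, n = 4) and 343 ± 221 in mutant axons (SD, n = 5), and 5.33 to 41.0 CPM as group means elsewhere. After removal of group means only Rps4x of these was still among the 8 most similar genes, at r = 0.68. By Spearman's rho 4 of the 8 remained and over the 15 mutant libraries 2 remained. Counts of ribosomal protein genes are uncertain, as these genes have many near-identical copies in the genome.

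**Figure D4:**
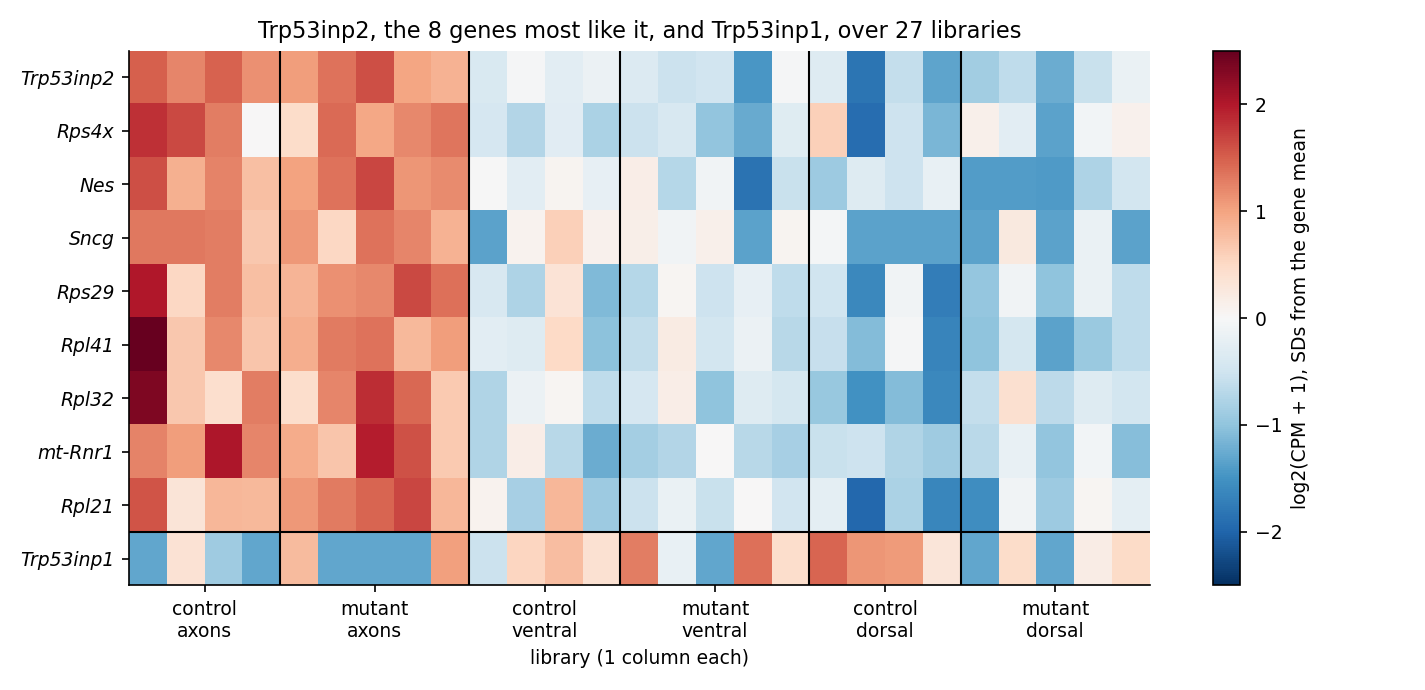
Level of Trp53inp2, the 8 genes most like it and Trp53inp1 (rows) in the 27 libraries (columns, by group), as log2(CPM + 1) in SDs from each gene's mean, red above and blue below. The rows of Trp53inp2 and of the 8 genes, with r of 0.84 to 0.88, are red or near their mean in the 9 axon libraries, and the row of Trp53inp1 is not.

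For Trp53inp1 the most similar genes were Rb1 (r = 0.73), Adamts15 (0.73), Zfp729a (0.70) and Cdkn1a (0.68). Rb1 encodes the retinoblastoma protein, and Adamts15 a secreted metalloproteinase. Of these 4, by Spearman's rho 2 remained, over mutant libraries 1 and after removal of group means 2. All these correlations share the libraries and their depth and carry no test.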

How the data were processed

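Geo-seq cDNA (laser capture, PCR amplification, Nextera XT) was read as single-end sequence. The authors ran Seq2Science with default settings, aligned reads to mm10 with STAR and deposited HTSeq read counts per gene, with no scaling or filter. Versions, annotation release and strand setting are not given in the sources used here. Gene identifiers were matched to GENCODE M21 (55227 of 55487). No pair of libraries held identical counts.

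CPM were computed as counts over library totals, and CPM per kilobase over the union of exons. The 16330 genes over 10 counts in 3 or more libraries were tested with edgeR 4.0.16 in R 4.3.3 (quasi-likelihood F-test, robust, legacy, TMM, two-sided) and called where the p adjusted by Benjamini-Hochberg was under 0.05 and the log2 fold change beyond 0.58 in size. Fewer were tested where a comparison's libraries lacked counts. Regions were compared within a genotype in a fit of 3 regions with the embryo as a block, genotypes within a region with batch as a term, and their interaction on 27 libraries with the embryo as a block. The embryo was taken from the replicate number of the labels. The methods give 3 regions from 4 control and 5 mutant embryos, and no source used here states that the number marks the embryo. Deviations of same-numbered libraries correlated with r of −0.02 to 0.11 (median 0.04, 27 pairs). Between differently numbered libraries of 1 genotype r was −0.08 to 0.07 (median −0.01, 96 pairs), so the ranges overlap and the check is weak. P-values of edgeR rest on the spread between these libraries that is left after the embryo block or batch term. Those of the sign-flip test rest on the paired differences, and those of the genotype permutation on the libraries of a region. Standard errors are approximate, derived from the fold change and F. Alternatives used DESeq2 1.42.0, limma 3.58.1, other scalings, filters, batches and left-out embryos. Exact permutation tests enumerated the splits or sign flips with numpy 2.4.6.

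The genes and lists were chosen with earlier results of these data known. Named genes are both members, the 8 and 4 genes of highest Pearson correlation with proper symbols, and up to 3 called members per list and direction with the smallest p. Slc1a3, Ttr, Map1lc3a, Ntrk2, Thra, Trp53 and the list genes at 0 were named after their values were seen. An item withheld for evaluation is not reported here.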

Additional observations from a re-analysis of the deposited data

Results flagged for a closer look

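Trp53inp1 in the axon piece of control embryo 2, at 14.5 CPM, stood far from the other control axon libraries, which had 0, 0.954 and 0 CPM. The gap was 0.934 of the group's whole range. Of the 12 groups of values examined (2 genes in 6 groups) this was the only such library. Chance sets apart about 1 in 20 groups of normally distributed values, a rate that need not hold for skewed values with libraries at 0.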

How the results depend on the processing

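Trp53inp2 was higher in mutant axons under all 14 alternatives of each comparison. The call was lost against dorsal in batch B alone (3.38), and against ventral in batch A alone (4.44), in batch B alone (4.00) and without mutant embryo 2 (4.16). Leaving out each embryo in turn gave 4.03 to 4.90 against dorsal and 4.00 to 4.65 against ventral. Without the embryo as a replicate block the values were 4.49 and 4.09 (adjusted p = 0.000389 and 0.000806 by edgeR), and no member's call changed. Trp53inp1 in control axons passed the threshold in DESeq2 only (−6.50 and −4.62). The counts of genes called against dorsal and ventral in mutants, 103 and 84 in edgeR, were 3366 and 3200 with DESeq2 (492 and 476 of them higher in axons, against 74 and 72 in edgeR), 841 and 674 with limma voom (125 and 160 higher), 200 and 160 with the newer edgeR method, 42 and 41 with 2 regions alone and the replicate block, 7 and 2 in batch A and 0 and 0 in batch B, 40 to 62 and 30 to 56 with an embryo left out, and 136 against ventral with no replicate block. In the other 10 comparisons edgeR called 0 to 36 genes, DESeq2 342 to 2296 and limma voom 6 to 167. Signs that turned all belonged to values within their error. Trp53inp1 in mutant axons over dorsal became 0.66 with the newer edgeR method, 0.88 with no replicate block and 0.30 in batch B, and ran from −3.34 to 1.497 with an embryo left out (−1.61 to 0.69 in the permutation test). In mutant dorsal over ventral, Trp53inp2 became 0.62 in batch B (−0.79 to 0.043 with an embryo left out) and Trp53inp1 became 0.44 in batch A. The genotype difference of Trp53inp2 became −1.32 in dorsal in batch A, with −0.070 to 1.71 in dorsal and −1.71 to 0.048 in ventral with an embryo left out. The ventral permutation difference of Trp53inp1 became −0.074 with a pseudocount of 0.5 and ran from −0.57 to 1.05 with an embryo left out. The cause of these changes was not tested. Batch A held 1 control embryo, so regions of controls could not be fitted there.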
